A study of Mus musculus with 4 samples.

Results

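Among the mature olfactory sensory neurons (OSNs) of the main olfactory epithelium, a small dorsal group was set apart by a high level of Cd55. These neurons were the members of the cluster that the authors' cell table names Cd55+ D. in a clustering made without odorant receptor genes. They numbered 142 of 9539 clustered mature OSNs, with 30, 41, 27 and 44 neurons in mice 1 to 4. The epithelium came from 4 male C57BL/6 mice (C57BL/6J in the study's methods) aged 8 weeks, for which the labels give no transgene and no treatment and which formed 1 group, and each mouse gave 1 library of single-cell 3′ RNA-seq. Cells were released with papain and sorted for live nucleated cells before capture, so the shares below are shares of what survived that handling. The comparison throughout was with the plain Dorsal cluster, which held 1482 neurons (448, 317, 305 and 412), taken from the same mice.

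Each mature OSN transcribes a single odorant receptor gene, and the neurons that share a receptor form a population whose axons meet in the olfactory bulb. Class I receptors, whose genes lie together on chromosome 7, are used mostly by neurons of the dorsal zone, while class II receptors are used in all zones. The product of Cd55, also called decay-accelerating factor, is a surface protein anchored in the membrane by a lipid, and it protects cells from complement by speeding up the decay of the enzymes that activate it. Nqo1, a quinone reductase, marks the dorsal zone, and the transcription factor gene Nfix marks the ventral zone.

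Libraries held 23157467 to 32382702 unique molecular identifiers (UMIs, tags that count each captured transcript once) over 4746 to 6003 barcodes. The median UMI count per neuron in Cd55+ D. was 5716.5, 3646, 7087 and 4069.5 in mice 1 to 4, and in Dorsal it was 5229, 4202, 5972 and 3644.5, so neither cluster was deeper in each mouse. Mitochondrial UMIs made up a median of 1.01% ± 0.22 per neuron in Cd55+ D. and 1.05% ± 0.17 in Dorsal (SD, n = 4). Of 21755 barcode sequences, 54 occurred in 2 or more libraries, among them 1 of the Cd55+ D. neurons. Neurons with at least 2 UMIs of a second receptor, a possible sign of 2 cells in 1 droplet, made up 6.31% ± 4.62 of Cd55+ D. and 2.04% ± 0.73 of Dorsal.

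The markers fitted the name of the cluster. Levels are given as UMIs per 10000 UMIs summed over the neurons of a cluster in a mouse. Cd55 (chr1:130439027-130462744, minus strand, GRCm38) stood at 11.9, 15.1, 18.0 and 14.0 in Cd55+ D. against 0.705, 0.859, 0.683 and 0.502 in Dorsal. The lowest mouse of the cluster was thus far above the highest Dorsal value, which is what the clustering was built on and is no finding of its own. Nqo1 (chr8:107388225-107403206, minus strand) was high in both, at 28.8 ± 2.54 in Cd55+ D. and 25.2 ± 4.84 in Dorsal. Nfix was at 0.463 ± 0.194 and 0.418 ± 0.127, against 5.52 ± 0.44 in the plain Ventral cluster. Neuron by neuron, 141 of the 142 had more Nqo1 than Nfix UMIs. The authors named clusters dorsal or ventral by these genes, so this too is no finding of its own.

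The cluster was made of mature neurons with little RNA of other cell types. Omp, the olfactory marker protein gene, was at 64.8 in Cd55+ D. and 66.5 in Dorsal, as the mean of 4 mice. Of the other mature neuron markers, Adcy3 was at 9.38 and 10.6, Cnga2 at 5.48 and 7.25 and Gng13 at 75.3 and 88.4. Each of these was lower in Cd55+ D. in 4 of 4 mice. The authors had picked mature OSNs by high Omp, Cnga2 and Gng13 without Gap43, so the levels were set in part by that choice. Gap43, which marks immature neurons, was at or below 0.216 in each mouse. The summed level of the markers of sustentacular cells ranged from 0.05 to 0.30 over mice in Cd55+ D. and from 0.14 to 0.27 in Dorsal. The defining genes Cyp1a2 and Ermn were at 0 counts in Cd55+ D. and at 4 and 1 in the larger Dorsal cluster, so the 0 says little. Markers of horizontal basal, globose basal, microvillar and immune cells and of ensheathing glia summed to 0.18 or less in each mouse. Hemoglobin genes summed to 0.214 to 1.33 over mice in Cd55+ D. and to 0.142 to 1.28 in Dorsal. Within mice, Hbb-bs was higher in Cd55+ D. in 4 of 4 (mean 0.496 against 0.370), Hba-a1 in 1 and Hba-a2 in 0.

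Cd55 itself was not limited to the clusters named after it. The mean level was 17.4 ± 0.47 in Cd55+ V., the ventral cluster of the same name, 14.7 ± 2.58 in Cd55+ D., 8.91 ± 0.98 in Cd36+ D. and 6.92 ± 0.32 in Cd36+ V. In the other 6 clusters the mean was at most 1.02. The spread of the mice of Cd55+ D. and Cd55+ V. overlapped, and so did those of the low clusters, while the Cd36+ clusters lay between. In single neurons of Cd55+ D. the Cd55 count ran from 0 to 30 UMIs with a median of 6, and 4 of 142 had none. In Dorsal the median was 0 and 1247 of 1482 neurons had none. The gene Cd55b, a neighbouring copy that shares 6.88% of the 60-base stretches of the Cd55 transcripts, had 1 count in the cluster.

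**Figure D1:**
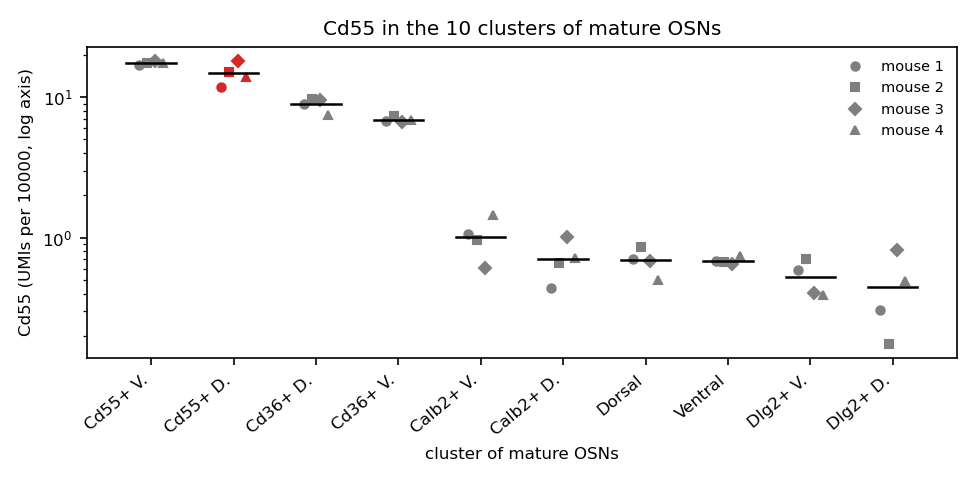
Cd55 level (UMIs per 10000, log axis) in the 10 clusters of mature OSNs, ordered by the mean over 4 mice, which is drawn as a bar; each symbol is 1 mouse. Cd55+ D. (red, mean 14.7) sits beside Cd55+ V., the Cd36+ clusters lie below it, and the plain Dorsal cluster has a mean of 0.687.

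The share of the clustered neurons that fell in Cd55+ D. was 1.15%, 1.79%, 1.58% and 1.51% in mice 1 to 4, with an SD of 0.266 percentage points. As a share of the 5 dorsal clusters it was 5.28% ± 1.34. Mouse 1 was lowest and mouse 2 highest on both, and the 95% Wilson interval of the first share was 0.805% to 1.63% in mouse 1 and 1.32% to 2.42% in mouse 2, which overlap and cover counting error only. When the authors clustered the same neurons with receptor genes kept in, 108 of the 142 were again called Cd55+ D. Of the others, 20 moved to Dorsal, 10 to Cd55+ V., 2 to Dlg2+ D. and 2 to Ventral.

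The cluster held 34 receptors, and the 5 most frequent accounted for 67 of its 142 neurons (47.2%), against 173 of 1482 (11.7%) for the 5 most frequent of Dorsal, which held 263. Both values depend on the number of neurons, which was larger in Dorsal, and were not compared at equal numbers. The largest group expressed Olfr592 (class I, chr7:103184803-103192965), with 6, 7, 6 and 2 neurons in mice 1 to 4, and 21 of the 23 clustered Olfr592 neurons lay in Cd55+ D. Olfr608 (chr7:103469877-103471358) had 9 of 10 and Olfr358 (class II, chr2:37002163-37009335) had 10 of 13. Each of these receptors placed over 75% of its neurons in a cluster that was drawn without sight of the receptor.

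Other populations were split. Olfr582 had 11 of 18 neurons in Cd55+ D., with none in mouse 1, Olfr670 had 6 of 9, and Olfr692 and Olfr522 each had 6 of 11. Olfr591 placed 16 of 41 in Cd55+ D. and 23 in Dorsal, with 3, 4, 4 and 5 in the cluster in mice 1 to 4. Olfr655 placed 6 of 37 there and 30 in Dorsal. The class II gene Olfr839-ps1, which the annotation lists as protein-coding, had 5 of 28 in Cd55+ D. and 19 in Cd55+ V.

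Cd55 in the populations with the most Dorsal neurons differed within the same receptor. Olfr591 neurons of Cd55+ D. had a median of 6 Cd55 UMIs (1 to 28), and those of Dorsal had a median of 2 (0 to 5), with 5 of 23 at 0. The Olfr591 neurons left in Dorsal thus lay nearer to the cluster than Dorsal as a whole. Olfr655 neurons had a median of 6.5 (1 to 14) in Cd55+ D. and 0.5 (0 to 8) in Dorsal. The 1 Dorsal neuron with Olfr670 had 8 Cd55 UMIs, against a median of 7 in Cd55+ D. These values describe where the boundary of the cluster ran, since Cd55 was among the genes clustered.

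**Figure D2:**
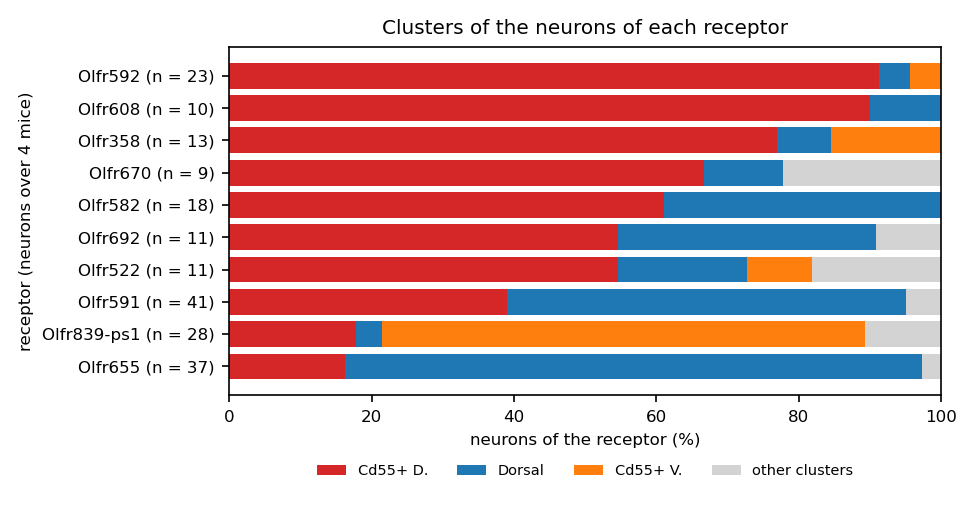
Clusters that hold the neurons of each receptor with at least 5 neurons in Cd55+ D., as a percent of the receptor's clustered neurons over 4 mice. Olfr592 (21 of 23) and Olfr608 (9 of 10) lie almost wholly in Cd55+ D., Olfr591 and Olfr655 are divided between Cd55+ D. and Dorsal, and Olfr839-ps1 lies mostly in Cd55+ V.

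The receptor make-up was tested on neuron numbers per receptor and mouse with edgeR's quasi-likelihood test, mouse as a block, since receptor identity took no part in the clustering. Of 110 receptors with at least 5 neurons over both clusters, 8 were more frequent in Cd55+ D. at an adjusted p under 0.05, which is 7.27%, and none was more frequent in Dorsal, where 8 had an unadjusted p under 0.05. The 8 were Olfr592 (log2 difference 6.88 ± 0.90, SE, adjusted p = 2.01e-11), Olfr358 (5.93 ± 0.86), Olfr608 (5.50 ± 0.93), Olfr670 (5.17 ± 1.38), Olfr522 (4.61 ± 1.21), Olfr582 (3.77 ± 0.68), Olfr692 (3.73 ± 1.00) and Olfr591 (2.86 ± 0.91, adjusted p = 0.024). The call for Olfr655 was not made (1.17 ± 0.88, adjusted p = 0.577), and Olfr839-ps1 missed it at 0.0871 (edgeR, both with mouse as a block). With 142 neurons in Cd55+ D. against 1482 in Dorsal, most receptors were expected at few neurons in Cd55+ D. A receptor more frequent in Dorsal could thus hardly be called. The calls rest on few neurons. Without mouse 4, 0 of 81 receptors passed in edgeR, without mouse 1 or mouse 3 there were 5, and without mouse 2 there were 7, while Olfr592 kept a difference of 6.94 without mouse 4 (edgeR adjusted p = 0.19). With receptor UMIs in place of neurons, 1 passed.

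Class I receptors were over-represented. They were identified in 63.3%, 58.5%, 70.4% and 61.4% of the Cd55+ D. neurons of mice 1 to 4, and in 36.2%, 36.6%, 29.8% and 27.2% of Dorsal neurons, so the 2 ranges did not overlap. The difference was 31.0 percentage points and had the same direction in 4 of 4 mice (exact sign-flip permutation test, two-sided, p = 0.13, the smallest that 4 mice allow). The 89 class I neurons of the cluster sat beside 1 class I neuron among the 352 of Cd55+ V. Without Olfr592, the largest population, the difference was 24.0 points. Cd36+ D. was the other dorsal cluster with a high class I share, at 59.4% over all mice.

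Several of these class I genes lie near each other. Olfr591, Olfr592 and Olfr593 (3 of 4 neurons in Cd55+ D.) are neighbours with no other receptor gene between them, 6.46 kb and 18.9 kb apart. Olfr582 lies 123 kb before Olfr591 and Olfr608 lies 257 kb after Olfr593. Nearby genes differed, since between Olfr582 and Olfr591 Olfr584 had 2 of 14 neurons in Cd55+ D. and Olfr586 had 0 of 31, with 29 in Dorsal. Olfr594, the receptor gene after Olfr593, had 0 of 25, with 23 in Dorsal. Transcripts of Olfr591 and Olfr593 share some sequence (12.5% of the 60-base stretches of Olfr593), so a few of their counts could be exchanged.

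Some receptors of the cluster were found more often on the ventral side. Of the 34, 8 had more neurons in Cd55+ V. than in any other cluster and 2 had more in Ventral (Olfr460 with 4 of 12 there), and these 10 accounted for 19 of the 142 neurons. Those 19 neurons had 21.0 UMIs of Nqo1 and 1.72 of Nfix per 10000, against 30.1 and 0.254 in the 115 neurons whose receptors had a dorsal cluster as their most frequent. The authors called the cluster dorsal by Nqo1 and Nfix, so a high Nqo1 followed from membership. It does not show the side of these 19 neurons, whose higher Nfix level rests on 17 counts. Cd55 was at 10.8 in the first and 15.7 in the second. These are pooled values over mice, given without a test. With at least 3 neurons in each cluster, Cd55+ D. shared 3 of its 18 receptors with Cd55+ V. (16.7%, and 11.5% of the 26 of Cd55+ V.) and 6 with Dorsal (33.3%, and 3.70% of 162).

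The tie between receptor and cluster was carried over to mice that had not been used to find it. For each mouse, receptors were assigned from the other 3 mice, as those with at least 3 neurons there and at least 50% of them in Cd55+ D. or in Dorsal. This gave 9, 11, 10 and 9 receptors for Cd55+ D., 11 different ones in all. Of the neurons with those receptors in the left-out mouse, 17 of 29, 18 of 26, 17 of 22 and 21 of 26 lay in Cd55+ D., or 71.5% ± 9.8. Of the neurons with Dorsal receptors, 2.25% ± 0.65 did, with no overlap (exact sign-flip permutation test, two-sided, p = 0.13, the smallest possible). The clusters had been drawn on the 4 mice together, so the left-out mouse was not wholly unseen.

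The neurons of Cd55+ D. carried more of their own receptor transcript. It amounted to 136, 170, 153 and 120 UMIs per 10000 in mice 1 to 4, against 97.7, 102, 98.1 and 103 in Dorsal, a mean difference of 44.4 in the same direction in 4 of 4 mice (exact sign-flip permutation test, two-sided, p = 0.13). This value rested mostly on Olfr592, whose neurons in Cd55+ D. were at 322. Without Olfr592 neurons the difference was 8.12. It was 56.9 with class I receptors alone and 14.0 with class II receptors alone (exact sign-flip permutation test, two-sided, p = 0.25 for the second). Within a receptor, the level was higher in Cd55+ D. than in Dorsal for 6 of the 10 receptors with at least 5 neurons in the cluster, some with a single Dorsal neuron. For Olfr591 the level was 141 in Cd55+ D. and 109 in Dorsal, while for Olfr692 it was 61.0 in Cd55+ D. and 64.3 in Dorsal. The single Dorsal neurons with Olfr592 and Olfr358 were at 328 and 229, against 322 and 169 in the cluster.

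In genes other than receptors, the cluster differed from Dorsal by a short list. Of 3726 genes with a mean of at least 0.5 UMIs per 10000 in either cluster, 16 were at least 2-fold higher in each of the 4 mice (0.429%) and 12 at least 2-fold lower (0.322%), on the scale of log2(UMIs per 10000 + 0.1). The median over all 3726 genes was -0.02. These genes are what the clustering saw, so they are given as a description without a test. Scaling the sums with TMM factors in place of totals lowered each ratio by 0.11 on the log2 scale, and 12 genes were then higher and 14 lower.

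After Cd55 (log2 ratio 4.24 ± 0.35, SD over mice), the genes with the highest ratios were Zpld2 (3.44 ± 0.08), Tppp3, which codes for a tubulin-polymerising protein (2.96 ± 0.48), the unnamed transcript Gm49542 (2.85 ± 0.78), the protocadherin gene Pcdh11x (2.42 ± 0.44) and Gng3, a G protein gamma subunit gene (2.42 ± 0.31). The order depends on the added 0.1, since the pooled ratios of Gm49542 (29.6) and Zpld2 (27.0) were above that of Cd55 (21.5). Tppp3 was at 3.10, 2.85, 3.64 and 3.03 in Cd55+ D. and at 0.344, 0.474, 0.237 and 0.248 in Dorsal. The mice of the 2 clusters were well apart, and no value overlapped. Dio2, whose enzyme activates thyroid hormone, was at 2.32 ± 0.14, and Cyp26b1, whose enzyme degrades retinoic acid, was at 1.56 ± 0.37. The other 8 were Cfap52, Pcdh8, Rasl11a, Lifr (the receptor of leukemia inhibitory factor), the transcription factor gene Olig1, Scg3, Scgn (a calcium-binding protein gene) and Tub.

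The genes lower in the cluster were led by Mslnl (-3.94 ± 1.03), Ptn, which codes for the growth factor pleiotrophin (-3.58 ± 0.61), and the metalloprotease gene Adam28 (-3.34 ± 0.66). Ptn was at 0.214, 0.182, 0.598 and 0.379 in Cd55+ D. and at 4.98, 4.67, 4.63 and 5.17 in Dorsal. All 4 mice of the cluster were below 0.6 and all 4 of Dorsal above 4.6. Adam28 had 3 counts in the cluster, so that its pooled level in Dorsal was 28.6 times higher with a 95% counting interval of 9.77 to 139. Tuba4a, an alpha-tubulin gene, had 1 count (ratio 63.6, interval 11.4 to 2516). By pooled ratio, which adds no 0.1, Adam28 and Tuba4a thus ranked ahead of Mslnl (19.1) and Ptn (14.1). Cadps2, D930020B18Rik, the transcription factor gene Fezf1, Papss2, Lima1, Stmn4 and F8 were also among the 12.

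**Figure D3:**
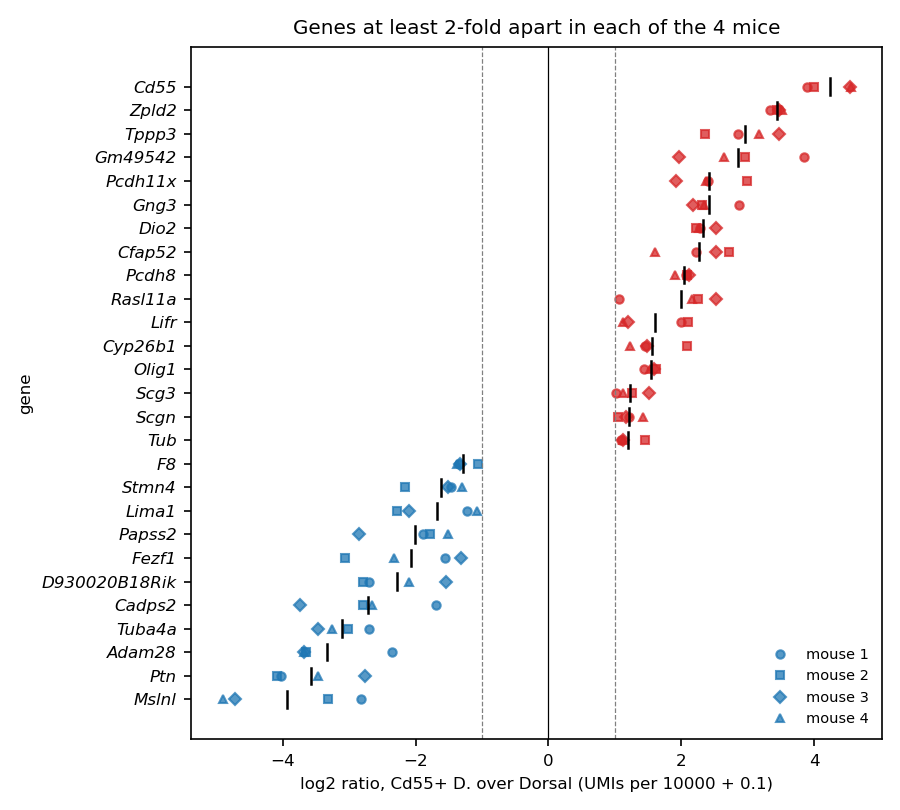
Log2 ratio of Cd55+ D. over Dorsal (UMIs per 10000 + 0.1) for 27 genes at least 2-fold apart in each of the 4 mice; symbols are mice, the short bar is their mean and dashed lines mark 2-fold. The 16 higher genes (red) are led by Cd55 and the 11 lower genes shown (blue) by Mslnl.

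To group neurons without use of their own cluster, the neurons of each left-out mouse were grouped by receptor alone, with receptors assigned to Cd55+ D. or to Dorsal from the other mice as above and neurons of any cluster included. The first arm held 29, 26, 22 and 26 neurons and the second 422, 311, 285 and 355. Class I receptors were found in 18, 23, 17 and 17 neurons of the first arm and in 170, 106, 103 and 109 of the second. The arms thus also differed in receptor class, and counts of called genes within each class are given in the closing section. With edgeR (quasi-likelihood, TMM, mouse as a block), 140 of 7460 genes were higher in neurons with Cd55+ D. receptors (1.88%) and 120 lower (1.61%) at an adjusted p under 0.05. All 16 of the higher genes named above and all 12 of the lower ones were among them. They had been picked in the same mice, and most neurons of the first arm were themselves in Cd55+ D. (17 of 29, 18 of 26, 17 of 22 and 21 of 26), so this overlap is no independent support. Among these, Scgn (0.80 without mouse 1), Tub (0.92 without mouse 4), Fezf1 (-1.77 and -1.02 without mouse 1 and mouse 3) and F8 (-1.97 and -1.41 without mouse 1 and mouse 3) missed the threshold in those fits, with edgeR adjusted p from 0.0564 to 0.309. With class II receptors alone Cyp26b1 (1.75), Lifr (1.71), Tub (0.96), Fezf1 (-1.17) and F8 (-1.24) missed it (edgeR adjusted p from 0.0994 to 0.742), and with DESeq2 Fezf1 and F8 did (0.149 and 0.171). Fezf1 also missed it with class I receptors alone, with receptors of at least 75% of neurons and with cells of at least 2000 genes (-1.48, -1.78 and -1.35, edgeR adjusted p of 0.124, 0.0532 and 0.058). The first arm rests on 11 receptors, neurons of a receptor are not replicates, and leaving out a mouse, which also removed it from the assignment, left 46 to 86 genes higher and 40 to 84 lower, with 46 and 40 without mouse 4. The clusters that chose the receptors were drawn from non-receptor genes of all 4 mice. The p of a gene that shaped the clusters is thus not independent of the choice of receptors.

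Cd55 was at 15.9, 14.3, 16.5 and 15.3 UMIs per 10000 in neurons with Cd55+ D. receptors and at 0.925, 0.734, 1.38 and 0.633 in neurons with Dorsal receptors. The mice of the 2 arms did not overlap, and the log2 difference was 4.08 ± 0.10 (SE, edgeR adjusted p = 5.29e-70). Cd55 was among the genes clustered, and the receptors were chosen by cluster. Its difference was thus set by the choice, and the p is no independent support. The other genes of this paragraph were also past 2-fold between the clusters, so the same limit holds for their p-values. Tppp3 was at 3.29 ± 0.598 against 0.288 ± 0.055 (SD), a log2 difference of 3.50 ± 0.18 (edgeR adjusted p = 3.71e-36). Zpld2, Gm49542, Cfap52, Dio2, Gng3 and Pcdh8 also rose by this test, with log2 differences of 4.30, 5.86, 4.27, 4.18, 3.45 and 2.73 and edgeR adjusted p of at most 9.53e-13. Cd55, Tppp3 and these genes kept their calls under each alternative that could be fitted. Pcdh11x rose by 2.42 ± 0.40 and lost its call without mouse 1 (1.67, edgeR adjusted p = 0.103).

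Among the genes with the largest falls, Ptn was at 0, 0.395, 0.197 and 0.280 with Cd55+ D. receptors and at 4.99, 4.98, 4.45 and 5.4 with Dorsal receptors, a log2 difference of -4.68 ± 0.25 (edgeR adjusted p = 1.91e-34). Mslnl had 1 count in the first arm, and the pooled level in the second was 203 times higher, with a 95% counting interval of 36.4 to 8012. Adam28 also had 1 count (ratio 59.2, interval 10.6 to 2341). Tuba4a and D930020B18Rik had 0 counts in the first arm and were at least 13.1-fold and 10.5-fold lower there, against a floor of 3 counts over the arm. All of these genes were also past 2-fold between the clusters that chose the receptors. Their values here are thus no independent support. Calb2, the calretinin gene that names 2 other clusters, was lower by -2.03 ± 0.25 (edgeR adjusted p = 1.3e-10), and this call was lost with DESeq2 (adjusted p = 0.0985). Neurons with Dorsal receptors, of any cluster, had a mean Calb2 level of 1.85, while the Dorsal cluster had 0.871. By cluster, the log2 ratio was -1.30 ± 0.94 (SD) and Calb2 was not past 2-fold in each mouse. In mouse 3 it was at 0.543 in Cd55+ D. and 0.629 in Dorsal.

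**Figure D4:**
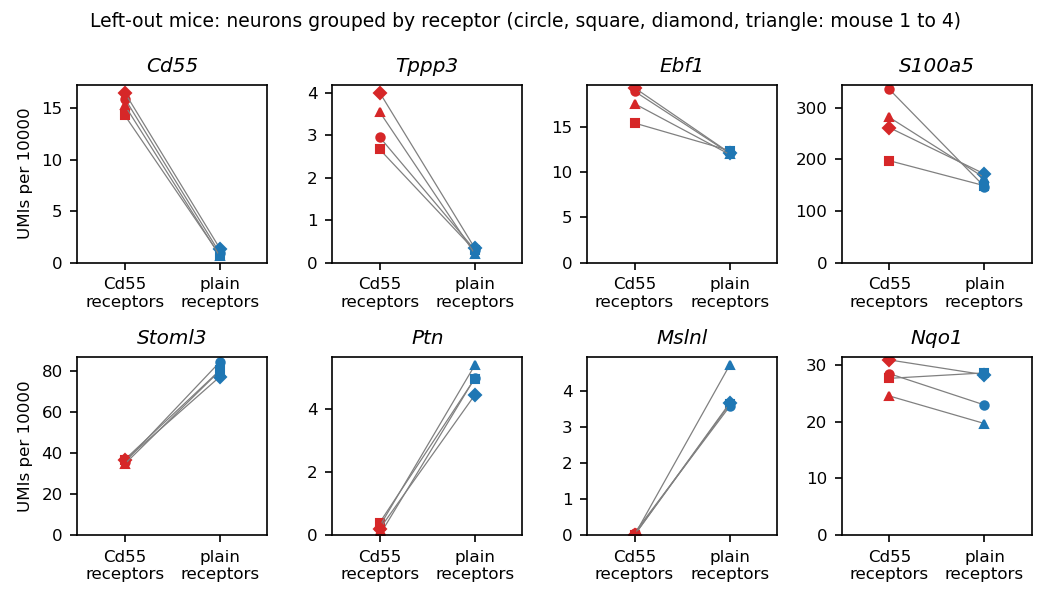
UMIs per 10000 of 8 genes in the left-out mice, for neurons with Cd55+ D. receptors (red) and with Dorsal receptors (blue); each symbol is a mouse and lines join the 2 values of a mouse. Cd55, Tppp3, Ebf1 and S100a5 are higher and Stoml3, Ptn and Mslnl lower in 4 of 4 mice, and Nqo1 overlaps.

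The set of receptors behind these values was not uniform. The levels below are over all neurons of each of the 11 receptors, those that served to choose the receptors included, so a high Cd55 was set by the choice and the values are a description. Cd55 ranged from 4.00 (Olfr522) to 22.8 (Olfr358) UMIs per 10000, and all 11 lay above the 95th percentile of 159 Dorsal receptors (2.96). Tppp3 ranged from 0.545 to 6.28 and lay above that percentile for 10 of 11. Ptn was below the Dorsal median of 4.56 for 11 of 11, with 1.83 for Olfr50 as the highest. Mslnl was at 0 for 9 of 11. Pcdh8 was highest for Olfr1171-ps1 (5.55) and Olfr522 (4.72), and it was 0.242 for Olfr582. Olig1 was at 0 for Olfr1171-ps1 and at 3.63 for Olfr358. These percentiles are descriptions, since small populations spread more widely by counting alone.

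Genes of the transduction cascade, which turns odorant binding into current in the cilia, included several lower ones. Of 18 tested, 5 fell and none rose, with a median log2 difference of -0.12 against -0.01 over all genes tested, of which 1.61% fell and 1.88% rose. Stoml3, a stomatin-like protein gene of olfactory cilia, was at 35.6, 36.8, 36.4 and 34.7 with Cd55+ D. receptors and at 84.5, 80.4, 77.3 and 80.2 with Dorsal receptors. The arms were far apart, and the fall of 1.16 on the log2 scale (SE 0.07, edgeR adjusted p = 1.99e-29) kept its call in each of the alternatives. The channel subunit gene Cnga4 fell by 0.75 (edgeR adjusted p = 6.12e-07), and by 0.41 with an adjusted p of 0.349 in edgeR without mouse 4. With class I receptors alone it fell by 0.47 (edgeR adjusted p = 0.0508). Gnal, which codes for the alpha subunit of the olfactory G protein, fell by 0.36, Cnga2 by 0.41 and Pde4a by 0.47. Without mouse 1 these 3 fell by 0.29, 0.32 and 0.33 and without mouse 4 by 0.31, 0.33 and 0.41, with edgeR adjusted p from 0.107 to 0.467, and Pde4a also missed the threshold without mouse 3 (0.0786). Cnga2 and Pde4a missed it too with DESeq2, with no replicate block, and with class I or class II receptors alone. Pde4a also did so with cells of at least 2000 genes, and Gnal with no replicate block and with class II receptors alone. Adcy3, the cyclase gene, was at 9.70 and 10.7, and its difference of -0.16 did not pass (edgeR adjusted p = 0.5).

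Genes linked to the activity of OSNs moved in both directions, with 3 of 9 tested higher, 3 lower and a median of 0.22, beside 1.88% higher, 1.61% lower and a median of -0.01 over all genes. Among the called were Plxna1 (higher) and Calb2, Kirrel3 and Nrp1 (lower), which other lists below count again. S100a5, which codes for a calcium-binding protein, was at 335, 197, 261 and 281 with Cd55+ D. receptors and at 147, 149, 172 and 164 with Dorsal receptors. The lowest of the first lay above the highest of the second, and the log2 difference was 0.76 ± 0.07 (edgeR adjusted p = 2.07e-15). Without mouse 4 it was 0.27 with an edgeR adjusted p of 0.466, and with class II receptors alone it was 0.52 (0.462). The level varied with receptor, from 20.4 (Olfr50) and 53.7 (Olfr1171-ps1) to 405 (Olfr548-ps1) and 478 (Olfr358). Over 159 Dorsal receptors the 5th to 95th percentiles were 26.1 to 326. Of the 11 receptors, 3 lay above that range and 1 below it, and 8 were above the Dorsal median of 156. The SE and p are over mice and do not measure this spread between receptors. By cluster membership the difference was smaller, at 0.30 ± 0.25 (SD), with mouse 2 at 143 in Cd55+ D. and 146 in Dorsal. Cartpt, a neuropeptide gene, rose by 0.33 ± 0.07 and lost its call without mouse 1 (0.12, edgeR adjusted p = 0.803) and without mouse 4 (0.33, 0.178). It also lost it without a filter on low counts, with no replicate block and with class II receptors alone.

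Among 21 tested genes of axon guidance and adhesion, 2 rose and 3 fell (1.88% and 1.61% over all genes), with a median of -0.05. Pcdh8 (2.73 ± 0.25) and Plxna1, a semaphorin receptor component gene (0.97 ± 0.14), were higher. Nrp1, which codes for the partner of plexins in semaphorin binding, had 0 counts in Cd55+ D. against 0.311 to 0.450 UMIs per 10000 in the mice of Dorsal, and 1 count by receptor (ratio 18.4, 95% counting interval 3.26 to 728, edgeR adjusted p = 0.000165). Kirrel3, an adhesion molecule gene, was lower by -2.71 ± 0.47 (edgeR adjusted p = 6.32e-06). With class II receptors alone Plxna1, Nrp1 and Kirrel3 missed the threshold (0.68, -2.98 and -3.31, edgeR adjusted p of 0.412, 0.251 and 0.101). Pcdh19 was lower by -1.47 ± 0.35 and missed the threshold without mouse 2, mouse 3 or mouse 4 (-1.21, -1.21 and -1.28, edgeR adjusted p of 0.0619, 0.156 and 0.227). It also missed it with DESeq2, with receptors of at least 75% of neurons, with class II receptors alone and with cells of at least 2000 genes.

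Of the regulators of OSN identity, 2 of 12 tested rose, where 1.88% of all genes did, and none fell, with a median of 0.12. Ebf1 was at 18.9, 15.4, 19.3 and 17.5 with Cd55+ D. receptors and at 12.1, 12.4, 12.1 and 11.9 with Dorsal receptors. The arms did not overlap, and the log2 difference of 0.57 ± 0.08 (edgeR adjusted p = 1.32e-09) kept its call in each alternative. Emx2 rose by 0.73 ± 0.20 (edgeR adjusted p = 0.0158), and without mouse 1, 2, 3 or 4 the differences of 0.80, 0.70, 0.59 and 0.46 missed the threshold (0.0947, 0.0872, 0.366 and 0.783). It also missed it with DESeq2, without a filter on low counts and with receptors of at least 75% of neurons. So it did with class I or class II receptors alone and with cells of at least 2000 genes. Olig1, outside this list, rose by 1.53 ± 0.18 (edgeR adjusted p = 7.04e-12). Ebf2 and Ebf3, of the same family as Ebf1, had differences of 0.26 and 0.22 that did not pass (edgeR adjusted p of 0.147 and 0.488).

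Of 8 genes of complement regulators, 2 had enough counts to be tested, and the second, Cr1l, differed by -0.10 ± 0.28 (edgeR adjusted p = 0.968). Of 8 genes of complement components, 7 had 0 counts in Cd55+ D. and none could be tested. Immediate early genes, which respond to stimulation and to dissociation alike, gave 3 rises and 1 fall among 7 tested, with a median of 0.51 (1.88%, 1.61% and -0.01 over all genes). Fos rose by 0.77 ± 0.15 and missed the threshold without mouse 3 (0.44, edgeR adjusted p = 0.339). With class II receptors alone the values of Fos and Dusp1 turned to -0.70 and -0.25 (edgeR adjusted p of 0.78 and 0.935). Jun was lower (-0.61 ± 0.16) while Junb and Dusp1 rose (1.22 ± 0.28 and 0.51 ± 0.14). Without mouse 3, Junb was at 0.84 (edgeR adjusted p = 0.321), and without mouse 4 at 0.68 (0.694). Junb also lost its call with DESeq2 and with class I or class II receptors alone. Jun and Dusp1 lost their calls without any of the 4 mice, with edgeR adjusted p from 0.0682 to 0.474. Both also lost them with DESeq2, with no replicate block, with class II receptors alone and with cells of at least 2000 genes. Jun did so too with class I receptors alone, and Dusp1 without a filter on low counts. Of the ER stress list, 1 of 11 fell (1.61% over all genes), which was Dnajb9 (-0.69 ± 0.18), and its call was lost without mouse 1, mouse 3 or mouse 4 (-0.36, -0.30 and -0.54). The call was also lost with DESeq2, with no replicate block and with receptors of at least 75% of neurons. So it was with class I or class II receptors alone and without neurons with at least 2 UMIs of a second receptor.

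Of the genes that mark OSN subsets, among them Cd55, 2 of 6 tested rose (Cd55 and Tppp3) and 3 fell (Calb2, Ptn and Adam28), with a median of -0.88 (1.88%, 1.61% and -0.01 over all genes), and since such genes defined the clusters this is no independent result. Cd36 was not tested. It had 14 counts with Cd55+ D. receptors, in mice 1 and 3 only, and 6 in the larger arm with Dorsal receptors, while Cd55+ D. itself had 0. None of 6 tested genes of immature neurons passed, with a median of 0.18. Of 2 dorsal side genes, 1 fell (1.61% over all genes). Acsm4 fell by 0.78 ± 0.12 (edgeR adjusted p = 4.11e-07), and by 0.40 without mouse 1 (0.167), while Nqo1 differed by 0.19 ± 0.07 (0.167). By cluster, Acsm4 was at 3.15, 2.30, 3.48 and 2.33 in Cd55+ D. and at 5.51, 5.02, 5.21 and 4.76 in Dorsal, without overlap. The ventral gene Nfix differed by -0.23 ± 0.37 (edgeR adjusted p = 0.917), the only one of 5 with enough counts. Of 7 mitochondrial genes, mt-Nd1 fell by 0.29 ± 0.08, and by 0.17 without mouse 1 and 0.17 without mouse 2 (edgeR adjusted p of 0.748 and 0.55). Its call was also lost with DESeq2, with no replicate block, with class I or class II receptors alone and with cells of at least 2000 genes. Of 3 hemoglobin genes, 1 could be tested and did not pass.

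By cluster membership, and so again as a description of what the clustering saw, all 16 genes higher in Cd55+ D. were also higher on average in Cd55+ V. than in Ventral, with a median log2 ratio of 2.29 there and 2.15 on the dorsal side, and all 12 lower genes were lower (-2.09 and -2.17), against a median of 0.01 over all genes. The 2 sides had no neurons in common but came from the same mice. For a test, the neurons of left-out mice were also grouped by receptors assigned to Cd55+ V. and to Ventral from the other mice. Whether a change differed between sides was tested as an interaction in edgeR, and 178 of 8792 genes passed (2.02%), 81 with a larger and 97 with a smaller value on the dorsal side.

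For Cd55 the difference between sides was -0.25 (edgeR adjusted p = 0.278), for Zpld2 -0.46 (0.663), for Ptn -0.93 (0.635), for Stoml3 -0.16 (0.344) and for Ebf1 0.02 (0.961), none of which passed. Between these receptor groups, S100a5 changed in opposite directions. It was 133, 127, 108 and 146 with Cd55+ V. receptors against 215, 196, 247 and 232 with Ventral receptors, a fall of 0.79 where the dorsal side rose, and the difference of 1.54 passed (edgeR adjusted p = 1.79e-34). Cartpt rose by 2.15 on the ventral side, from 5.23 ± 0.42 to 23.4 ± 1.94, and by 0.33 on the dorsal side (difference -1.83, edgeR adjusted p = 5.64e-46). The transcript Gm31557 (2.30 ± 0.19 on the dorsal side) had -0.16 on the ventral side, where it did not pass, and the difference was 2.42 (edgeR adjusted p = 3.22e-16). Rasl11a (1.15) and Lifr (1.23) changed more on the dorsal side, and Gng3 (-1.87) and Pcdh11x (-2.01) more on the ventral side, all with an edgeR adjusted p of at most 0.00131 for the difference. Gng3 was at 0.775 with Cd55+ V. receptors and 0.0186 with Ventral receptors, against 1.15 and 0.106 on the dorsal side. Its larger ventral change thus rests on a low Ventral level. By cluster, its log2 ratio was 2.42 on the dorsal and 2.58 on the ventral side.

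**Figure D5:**
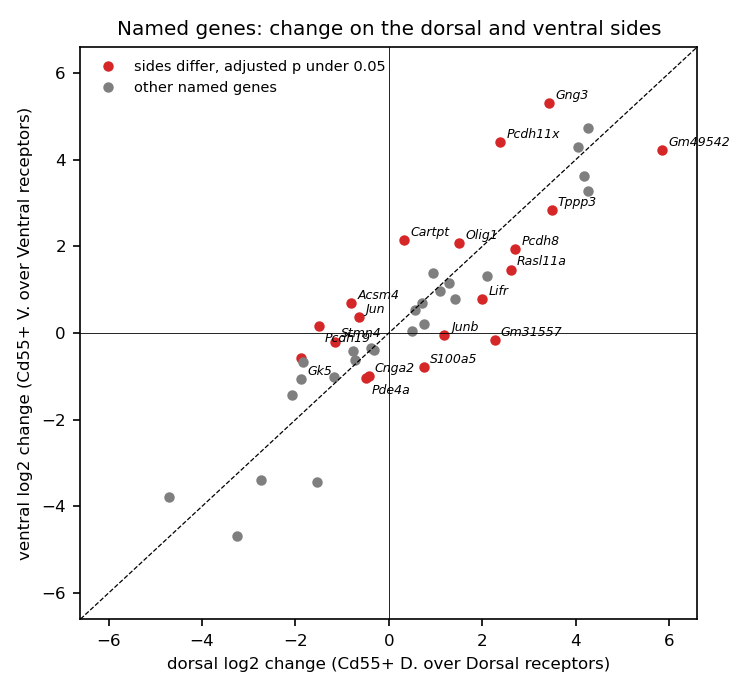
Log2 difference on the dorsal side (Cd55+ D. over Dorsal receptors, x axis) and on the ventral side (Cd55+ V. over Ventral receptors, y axis) in the left-out mice, for named genes called on the dorsal side with more than 3 counts in the first arm; the dashed line marks equal change. Red genes differ between sides, and S100a5 lies at a dorsal value of 0.75 in this fit of both sides and a ventral value of -0.79.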

How the data were processed

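Per the labels and the study's methods, the authors dissociated the epithelium of each mouse, captured cells with 10x Chromium 3′ chemistry and counted reads with Cell Ranger 6.0.1 on GRCm38, as the submitters' processing notes name them. Each deposited matrix gives unnormalized UMI counts for every gene in every barcode, and the deposited cell table gives, per cell, UMI counts, genes, the percent of mitochondrial UMIs, the cluster and the receptor, all as the authors assigned them in Seurat. Cells with over 10% mitochondrial UMIs or under 1000 genes had been removed by the authors, and clusters, receptor identities and doublets were taken as deposited, with no doublet caller run here. UMI totals computed from the matrices differed from the cell table in 0 cells. Gene positions came from GENCODE M21 (GRCm38), which matched 55216 of 55511 features. Receptor genes (1430) were left out of gene tests, and class I genes were the 156 in chr7:102476579-105369355.

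UMIs were summed per mouse and group, scaled to 10000 and compared as log2(value + 0.1). Mice were the replicates (n = 4). The groups of a mouse came from 1 animal, so mouse was a block. Tests used edgeR 4.0.16 (alternative DESeq2 1.42.0; quasi-likelihood test, TMM, filterByExpr, Benjamini-Hochberg at 0.05). The standard error of a log2 difference was its size over the square root of the F statistic. Single values were tested with exact sign-flip permutations. On simulated data (7438 genes), the gene test recovered 98.0% of changes of 2 and 35.4% of changes of 1 on the log2 scale upward, and 53.5% and 17.8% downward. The make-up test (110 receptors) recovered 60.0% of rises of 3 and 100% of rises of 5, from 5 receptors simulated at each. No falls were simulated for it. In the gene simulation, genes with a low mean count were not among those changed. Both simulations set a fixed spread that was not estimated from these data. The gene simulation held no differences between receptors, so its recovery need not hold for the real test.

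Named genes were the markers, the 15 highest and 15 lowest genes past 2-fold in each mouse (Tub, the 16th, was added after its value was seen), the 12 largest rises and falls among called genes with at least 0.5 UMIs per 10000, and called members of the lists; receptors needed 5 neurons or a call. The largest falls 4930581F22Rik and Gk5 among them are given with the sensitivity and flagged values. The members, lists and rules were chosen with earlier results of these data known. Alternatives were other scalings, tools, filters, cell limits, receptor classes and leaving out each mouse. The second-receptor, Olfr592, same-clustering and pseudocount alternatives, the class-restricted ones outside the gene test and the ventral comparison were added after seeing the data. The values of 1 gene are not reported here, though counts over all genes include it.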

Additional observations from a re-analysis of the deposited data

Results flagged for a closer look

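In the receptor-defined sums, named genes that were called on the dorsal side and whose change differed between the dorsal and the ventral side (edgeR interaction, adjusted p under 0.05) were, with the dorsal minus the ventral log2 difference, S100a5 (1.54), Gm31557 (2.42), Gm49542 (1.64), Junb (1.23), Lifr (1.23), Rasl11a (1.15), Pcdh8 (0.77), Tppp3 (0.64), Cnga2 (0.57) and Pde4a (0.53) with the larger value on the dorsal side. With the smaller value there were Pcdh11x (-2.01), Gng3 (-1.87), Cartpt (-1.83), Pcdh19 (-1.67), Acsm4 (-1.50), Gk5 (-1.29), Jun (-1.0), Stmn4 (-0.96) and Olig1 (-0.57). Among marker genes that were not called on the dorsal side, the difference also passed for Nqo1 (-2.26), Dlg2 (1.76), Adcy3 (0.49), Omp (0.33) and Gng13 (0.24). For Cnga2 and Pde4a both sides were lower, with log2 differences of -0.43 and -0.50 on the dorsal and of -1.0 and -1.03 on the ventral side. Acsm4 was at 0.12 UMIs per 10000 with Cd55+ V. receptors, so its ventral value rests on few counts. Gng3 was at 0.0186 with Ventral receptors, a low level on which its larger ventral change rests.

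Single mice stood apart from the other 3 in 5 of 72 groups of 4 values checked, where chance gives about 5%. Gng3 in Dorsal was 0.178 UMIs per 10000 in mouse 2 and at most 0.0914 in the others. Adam28 and Tuba4a were found in Cd55+ D. in mouse 1 only (0.160 and 0.0534), the others being at 0 counts. With the others at 0, any count sets the flag, and these values rest on 3 counts and 1 count. They thus show no difference of mouse 1. Gk5 was at 0.109 in Cd55+ D. in mouse 3 against 0.545 to 0.595 in the others, and at 0.928 in Dorsal in mouse 1 against 1.04 to 1.05.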

How the results depend on the processing

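Of 52 named genes tested by receptor, 24 kept direction and call in each alternative that could be fitted, and 28 lost the call in at least 1. With class II receptors alone the values of Fos (-0.70) and Dusp1 (-0.25) changed sign. The counts of genes higher and lower (140 and 120) were 70 and 46 with DESeq2, 80 and 202 without a filter, 53 and 50 with class I receptors alone, 29 and 54 with class II alone, 66 higher with receptors of at least 75% of neurons, 85 higher with cells of at least 2000 genes, and 77 lower with no replicate block. Leaving out a mouse gave 46 to 86 and 40 to 84. Fewer neurons enter several of these fits. The 8 receptor calls became 5 with at least 10 neurons per receptor, 1 with receptor UMIs and 0 to 7 without a mouse, while with no replicate block there were 10. The genes past 2-fold (16 and 12) became 30 and 32 at 1.5-fold, and 6 lower at a level of at least 1 UMI per 10000 and 5 lower with class I receptors alone. The share of Cd55+ D. was 1.21% when receptor genes were kept in the clustering. 4930581F22Rik (-1.86 ± 0.43) lost its call without mouse 1 (-1.36) and mouse 4 (-1.27), and Tub, Scgn, Fezf1 and F8 without at least 1 mouse. 4930581F22Rik also lost it with DESeq2 and with class II receptors alone. The cause of these changes was not tested. The first arm held 22 to 29 neurons per mouse, and on data simulated at this depth the test recovered 98.0% of log2 rises of 2, 35.4% of rises of 1, 53.5% of falls of 2 and 17.8% of falls of 1. Genes with a low mean count were not among those changed there. The spread was fixed rather than estimated from these data, and no differences between receptors were simulated, so recovery by the real test may differ.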
